A study of Rattus norvegicus with 12 samples.

Results

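The CpGs described here are single cytosine-guanine sites whose HELP score was lower in pancreatic islets of growth-restricted rats than in islets of control rats. They were selected on the scores themselves: after dropping 1 repeated row, a CpG was kept if it lay on a numbered chromosome and its mean over the 2 IUGR columns was below its mean over the 3 control columns. The rule kept 371 of the 4203 listed CpGs on chromosomes 1 to 20, or 8.83%, and the other 3832 scored higher in IUGR islets. Another 173 listed CpGs lay on chromosomes X and Y and were left out by the rule. Both groups were islets of rats aged 2 weeks, the controls labelled Control and the growth-restricted rats labelled IUGR, for intrauterine growth restriction, with titles beginning SGA. The labels give no strain, sex or way of inducing the restriction, and do not say whether a replicate is 1 animal or a pool. They describe 12 libraries, 6 per group, with 1 HpaII and 1 MspI library for each of 3 replicate numbers, and the score table holds 3 control and 2 IUGR columns, each taken here as 1 replicate.

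Methylation of cytosine at CpG sites is a mark that is copied when DNA replicates, and it is commonly heavy over most of a mammalian genome and light at many CpG-rich promoters. HELP-tagging reads it at CCGG, where HpaII cuts only if the inner cytosine is unmethylated and MspI cuts either way, so that the MspI library shows which sites could be cut at all. Pancreatic islets are small organs of endocrine cells, among them the insulin-secreting beta cells, and growth restriction before birth is studied in rats for its later effect on those cells. DNA of whole islets holds several cell types, and a change in their proportions and a change within cells cannot be told apart in these scores. The scale runs from 0 to 100, and the sources used here do not name its methylated end or the formula, so directions are given only as higher or lower scores. All coordinates refer to the rat genome build rn6 (Rnor_6.0). The tag depth behind a score is unknown, so no counting error can be given for a single score.

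Since the scores chose the CpGs, the gap between the groups is a description and was not tested. At 371 of 371 lower CpGs every control score was above every IUGR score, against 8.83% of all listed CpGs on these chromosomes, and nothing is read from this count because the rule and the authors' limits fix it. The smallest absolute difference in the list was 69.5, so a lower CpG had to average at least that much in control islets. CpGs with smaller differences were not analysed here.

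In control islets the lower CpGs sat near the top of the scale, with similar levels in the 3 replicates. The median score was 88.2 in control replicate 1, where scores ran from 33.6 to 99.3. It was 86.9 in control replicate 2, with scores from 39.4 to 99.0, and 84.4 in control replicate 3, with scores from 36.3 to 99.2. Over the 371 CpGs the control replicates averaged 82.4 ± 1.06 (SD of 3 replicate means). The mean control score of a CpG had a median of 82.0 and ran from 69.5 to 97.7. It was below 80 at 161 CpGs, from 80 to under 90 at 127 and 90 or more at 83.

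**Figure D1:**
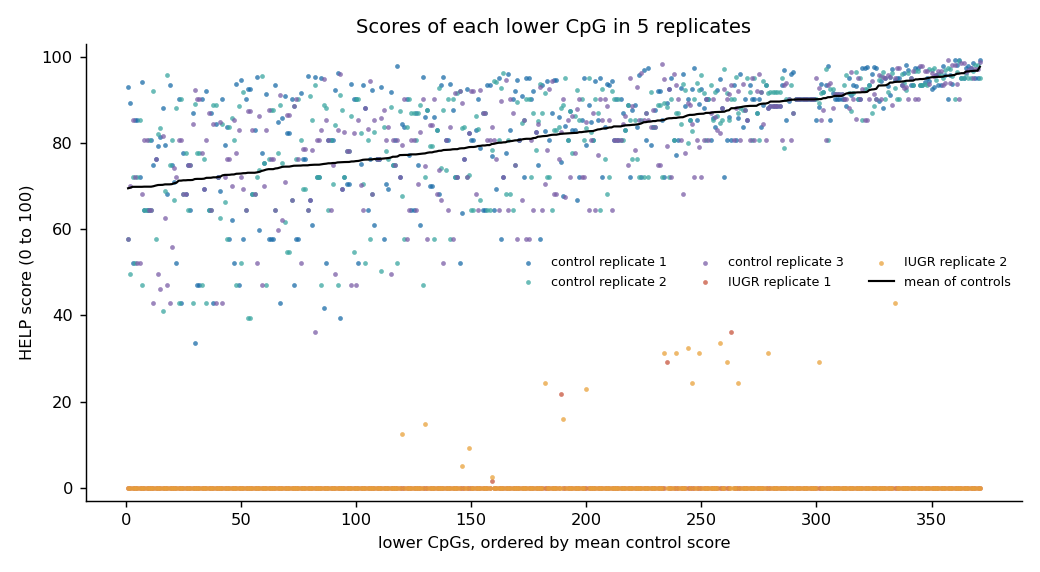
HELP scores (0 to 100, y axis) of the 371 lower CpGs, ordered along the x axis by their mean control score (black line); points are the 3 control and 2 IUGR replicates. Control points fan out on both sides of the line at low means and close up near 100, and IUGR points lie at 0 except at 22 CpGs.

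The control replicates agreed closely at some of these CpGs and widely missed each other at others. The SD between the 3 control replicates had a median of 8.32, with quartiles of 3.76 and 14.6, and reached 33.5. At 76 CpGs (20.5%) the highest and lowest control score lay more than 30 apart. A control score below 60 occurred at 82 CpGs, and at 81 of them in a single replicate: 1 CpG had 2 such scores. A mean of at least 69.5 on a scale that ends at 100 leaves little room for 2 low scores, so nothing is read from that split. These low scores were shared about evenly, with 27 in control replicate 1, 29 in replicate 2 and 27 in replicate 3. At the other extreme, all 3 control scores were above 90 at 61 CpGs (16.4%).

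Spread fell as the level rose. The median SD was 13.9 at CpGs with a mean control score below 80, 7.27 from 80 to under 90 and 2.28 at 90 or more. Part of this is set by the scale, which ends at 100, and by the rule, which lets a CpG with 1 low control score stay in if the others are high. The CpG at 43737300 on chromosome 2 had the widest spread, with control scores of 95.3, 93.4 and 36.3. Next, the CpG at 145539070 on chromosome 5 had scores of 33.6, 89.2 and 92.2. The CpG at 70996542 on chromosome 18 had scores of 39.4, 91.1 and 96.1. The low score was thus in replicate 3 at the first of these and in replicate 1 at the others, and both IUGR scores were 0 at all 3.

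**Figure D2:**
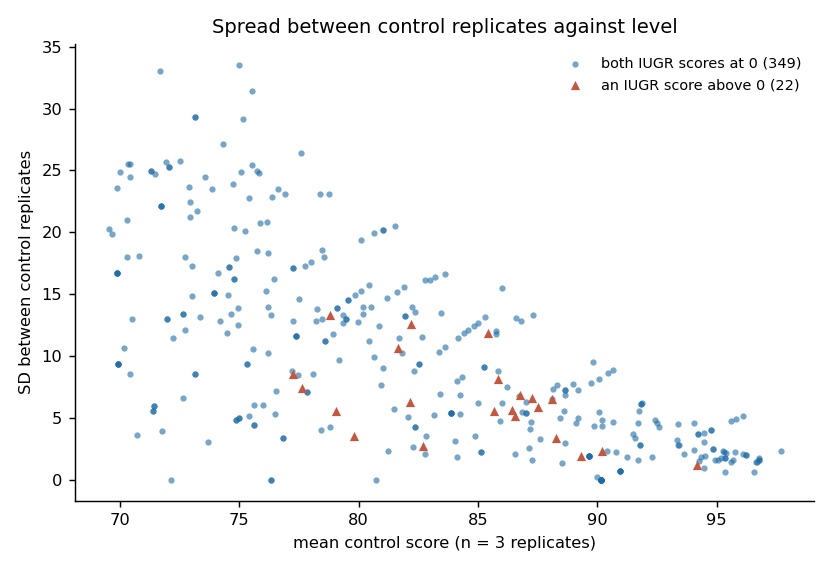
SD between the 3 control replicates (y axis) against the mean control score (x axis) of the 371 lower CpGs; triangles mark the 22 CpGs with an IUGR score above 0. The median SD was 13.9 below a mean of 80 and 2.28 at 90 or more.

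No control replicate held the highest or the lowest score at most CpGs. Scores within 0.02 of each other were counted as tied, since equal scores differed slightly between columns. Replicate 1 was above both others at 130 CpGs, replicate 2 at 93 and replicate 3 at 95. Replicate 1 was below both others at 94, replicate 2 at 95 and replicate 3 at 107. Pairs of control replicates differed at the median CpG by 7.67 (replicates 1 and 2), 9.40 (1 and 3) and 7.47 (2 and 3), and lay within 1 of each other at 14.8% to 15.6% of CpGs. At the 3832 higher CpGs the 2 IUGR replicates differed by a median of 8.62 and lay within 1 at 16.4%. Across the 371 CpGs Spearman's rho between control replicates was 0.214, 0.161 and 0.327, in the same order, and Pearson's r was 0.00925, 0.0184 and 0.151. These coefficients describe CpGs that share libraries and were selected for a high mean, which by itself limits them.

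In IUGR islets almost all lower CpGs were at the floor of the scale. Both IUGR scores were 0 at 349 of the 371 CpGs (94.1%). Of the other 22, 18 had a score above 0 in IUGR replicate 2 alone, 3 in replicate 1 alone and 1 in both. That CpG, at 11907524 on chromosome 1, scored 77.1, 78.5 and 83.8 in control islets and 1.65 and 2.60 in IUGR islets. The highest IUGR score was at 44899387 on chromosome 8, with 0 in replicate 1 and 43.0 in replicate 2, beside control scores of 94.7, 92.8 and 95.04. The 3 CpGs above 0 in replicate 1 alone were at 3447598 on chromosome 20 (21.8), 9991807 on chromosome 4 (29.2) and 54786302 on chromosome 19 (36.3). The 22 CpGs had a median control score of 85.7, against 81.5 at the 349. Such a gap follows from the rule, since an IUGR score above 0 must be offset by a higher control score to pass the authors' smallest difference.

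Both IUGR columns were thus not equally often off the floor at lower CpGs, with 4 scores above 0 in IUGR replicate 1 and 19 in replicate 2. At the higher CpGs, where the control columns lie at the floor, the control replicates were above 0 at 119, 143 and 136 of 3832, or 3.11%, 3.73% and 3.55%. The corresponding shares at lower CpGs were 1.08% and 5.12%.

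The largest differences stretched over nearly the whole scale. The CpG at 156142158 on chromosome 5 scored 99.3, 95.04 and 98.8 in the control replicates and 0 in both IUGR replicates. At 100262169 on chromosome 9 the control scores were the tightest of the 10 largest, 97.4, 96.0 and 96.4, or 96.6 ± 0.683 (SD, n = 3). The CpG at 54654185 on chromosome 19 scored 97.5, 95.04 and 97.5, and that at 70534629 on chromosome 17 scored 97.9, 95.04 and 97.0. The CpG at 22648636 on chromosome 8 scored 99.2, 99.0 and 90.1. IUGR scores were 0 throughout. The other 5 of the 10 comprised 255345535 on chromosome 1 and 2 pairs with identical scores, on chromosomes 5 and 12.

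At the lower limit of the list the members rested on mixed control scores or on an IUGR score above 0. The CpG at 38464932 on chromosome 14 had the smallest difference, 69.5, from control scores of 92.9, 57.8 and 57.8 and IUGR scores of 0. It was the CpG with 2 control scores below 60. The CpG at 58673786 on chromosome 17 had control scores of 82.8, 91.7 and 70.5 and IUGR scores of 0 and 24.2, a difference of 69.5. The CpG at 61318911 on chromosome 4 had control scores of 89.3, 49.5 and 70.1 and IUGR scores of 0. The CpG at 3793665 on chromosome 20 had control scores of 72.1, 89.3 and 94.8 and IUGR scores of 0 and 31.2, and that at 38857284 on chromosome 10 had control scores of 52.1, 72.1 and 85.4 and IUGR scores of 0. CpGs just outside this limit were not analysed here.

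Control scores of the lower CpGs took few values and these repeated across the genome. The 371 scores of control replicate 1 comprised 123 distinct values, those of replicate 2 118 and those of replicate 3 109. The commonest was 90.1 in replicates 1 and 2, at 37 and 36 CpGs, and in replicate 3 it was 90.1 at 36 CpGs together with 80.7 at 36. The 10 commonest scores covered 43.1%, 42.6% and 45.0% of the CpGs. At higher CpGs the 10 commonest IUGR scores covered 49.2% and 50.5%, among 278 and 259 distinct values.

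These repeated scores form a ladder of simple ratios. Each score was read as an angle, with 100 as a right angle, and its tangent was divided by the tangent of the commonest score above 88 of its column. This reading is an assumption, since no source used here gives the formula. On it, a score of 80.7 stands at 1/2 of the ratio at 90.1, 72.1 at 1/3, 64.5 at 1/4 and 57.8 at 1/5, while 95.04 stands at 2 times and 93.4 at 3/2 times. Within a tolerance of 0.2%, 9 such ratios (2, 3/2, 1, 3/4, 2/3, 1/2, 1/3, 1/4 and 1/5) held 150, 149 and 150 of the 371 scores in the 3 control replicates. All 3 control scores were on these ratios at 70 lower CpGs, 2 were at 73, 1 was at 93 and none was at 135. Other simple ratios were not counted, so a score off these 9 may still stand on another. Tag numbers were not derived, and whether a score on a simple ratio rests on fewer tags was not tested.

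Among the 371 lower CpGs, the smallest p-values of the authors' deposited table went to those with equal control scores. In that table p ran from 1.41e-09 to 0.0455 over the 371 CpGs, with a median of 6.53e-04, and its header names no adjustment. The SD between control replicates was at most 0.02 at 13 CpGs, and among the 371 these were the 13 of smallest p in the authors' deposited table, all at most 3e-09. Higher CpGs reached 1.02e-09 in the authors' deposited table. At the other 358 its lowest p was 6.39e-09. The share with p of at most 0.01 in the authors' deposited table was 87.1% of lower CpGs (323), against 93.7% of all listed CpGs. Where both IUGR scores are 0, only the control columns vary. The median p in the authors' deposited table was 3.20e-06 at mean control scores of 90 or more and 0.00287 below 80.

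Many lower CpGs had exactly the same 5 scores as another. There were 331 distinct profiles among the 371 CpGs, and 68 CpGs (18.3%) fell into 28 sets with identical scores in all columns. Of these sets, 25 were pairs, and the other 3 held 9, 5 and 4 CpGs. Among higher CpGs 3002 of 3832 (78.3%) shared a profile, in sets of up to 142. The shares are not alike in kind, since 94.1% of lower CpGs have exactly 3 scores above 0 while 89.9% of higher CpGs have exactly 2, which leaves fewer scores that must match. The sets also differ in size, 371 against 3832, and a larger set offers more CpGs to match.

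The largest identical set lay mostly in a single stretch of chromosome 5. Its 9 CpGs all scored 90.1 in each control replicate (SD 0.000896, n = 3) and 0 in both IUGR replicates, the ladder ratio of 1 in every control column. The positions on chromosome 5 were 163576708, 163735781, 163868116, 164031516, 164240255, 164360987 and 164432841. These 7 CpGs spanned 856.1 kb at intervals of 71.9 to 208.7 kb, and no other CpG was listed between them. The authors' running number, which rises with position along each chromosome, advanced by 432 over the stretch. What each running number stands for was not checked here. The other 2 members lay on chromosome 6 at 108396260 and chromosome 8 at 22252622. The CpG listed just before the stretch, at 162861704, was also lower but had other scores, 80.7, 80.7 and 64.5 in the control replicates.

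On chromosome 12 identical scores came in mirror order. Going along the chromosome, 8835558 scored 95.04, 98.2 and 97.2 in the control replicates and 8865416 scored 93.4, 96.0 and 96.7. Then 9009791 repeated the scores of 8865416, and 9039694 repeated those of 8835558. All were at 0 in both IUGR replicates. The distance within the left pair was 29858 bases and within the right pair 29903 bases, and the running number advanced by 70 in each. The listed CpGs flanking the 4, at 8832791 and 9042459, scored higher in IUGR islets and were likewise identical to each other, at 0 in all control replicates and at 86.3 and 85.4 in the IUGR replicates. They lay 2767 bases before and 2765 bases after the 4, at 5 running numbers on each side. Thus 6 consecutive listed CpGs, 2 of them higher and 4 lower, read the same from either end. Whether the DNA on both sides is alike was not tested.

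**Figure D3:**
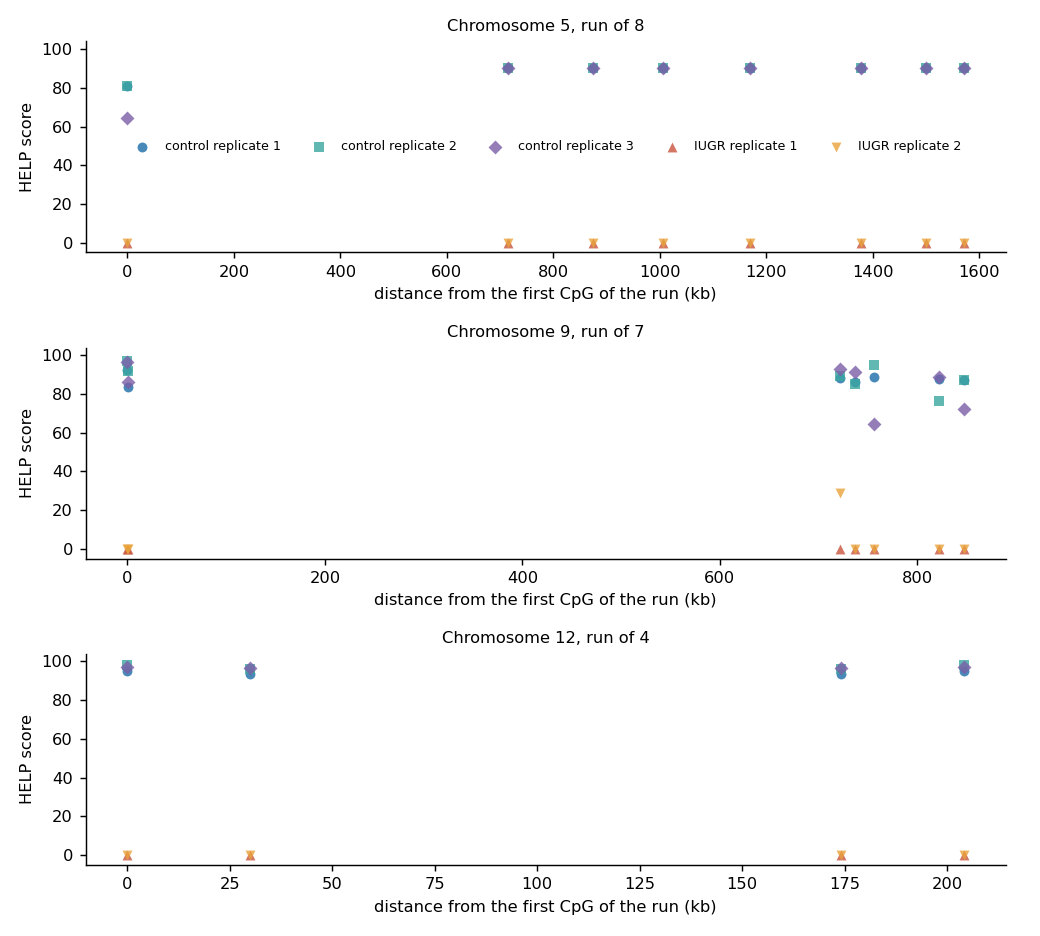
HELP scores (y axis, 0 to 100) of the lower CpGs in 3 runs against distance in kb from the first CpG of the run (x axis); marker shapes are the 3 control and 2 IUGR replicates. On chromosome 5 the last 7 CpGs share scores of 90.1 and 0, on chromosome 9 all 7 CpGs differ, and on chromosome 12 the outer and the inner CpGs pair up.

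The next sets joined chromosomes. The set of 5 scored 88.5, 91.9 and 88.5 in the control replicates and lay at 35489375, 35628787 and 78619409 on chromosome 18 and at 3929941 and 3965848 on chromosome 9. The set of 4 scored 90.1, 91.4 and 91.4 and lay at 91092800 on chromosome 7, 36725116 and 108426480 on chromosome 9, and 22798197 on chromosome 18. Neither set was all on the 9 ratios counted: 0 of 3 control scores of the first set and 1 of 3 of the second were on them. In the set of 5, control replicates 1 and 3 were equal to 1 decimal.

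Of the 25 identical pairs, 14 lay on a single chromosome. Among the 8 pairs whose 3 control scores were all on the 9 ratios counted, 1 was on a single chromosome and 7 joined different chromosomes. Among the other 17, 13 were on a single chromosome and 4 were not. This division depends on which ratios were counted, and some of the 17 have scores on other simple ratios. Pairs on a single chromosome were from 8.23 kb to 189889 kb apart, and 9 of the 14 lay within 1 Mb. The closest, at 114522099 and 114530329 on chromosome 9, scored 76.3, 69.5 and 78.7 in the control replicates. The pair at 62905007 and 64503359 on chromosome 5 shared an uneven profile of 92.6, 39.4 and 87.4, and the pair at 99553207 and 99972223 on chromosome 9 shared 47.2, 77.8 and 90.1. The pair at 25485027 and 25776990 on chromosome 7 shared 82.3, 54.8 and 86.5. In these last 3 pairs a low score in 1 control replicate recurred exactly at both sites.

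Lower CpGs were found on all 20 numbered chromosomes, but their share of listed CpGs varied. Over all of these it was 8.83% (exact Clopper-Pearson 95% interval 7.99% to 9.73%). It was lowest on chromosome 11, with 5 of 140 or 3.57% (1.17% to 8.14%), and chromosome 16, with 6 of 166 or 3.61% (1.34% to 7.70%). It was highest on chromosome 9, with 28 of 187 or 15.0% (10.2% to 20.9%), chromosome 12, with 23 of 166 or 13.9% (8.99% to 20.1%), and chromosome 18, at 13.3% (7.49% to 21.4%). This order depended on how CpGs were counted. With identical profiles counted once per chromosome, chromosome 8 stood highest at 16.5%, then chromosome 9 at 15.8%, chromosome 1 at 15.3% and chromosome 12 at 14.7%. This counting raised the share on all 20 chromosomes, since higher CpGs shared profiles more often. These values are therefore not set against 8.83%. Without its longest run, chromosome 9 was at 11.7%. The interval left out the overall share on 4 chromosomes below it and 4 above it. The intervals cover counting error only and treat CpGs as independent, which those with identical scores may not be. The chromosomes were not tested against each other here. Chromosome 1, the longest, held the most lower CpGs, 46 of 435.

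**Figure D4:**
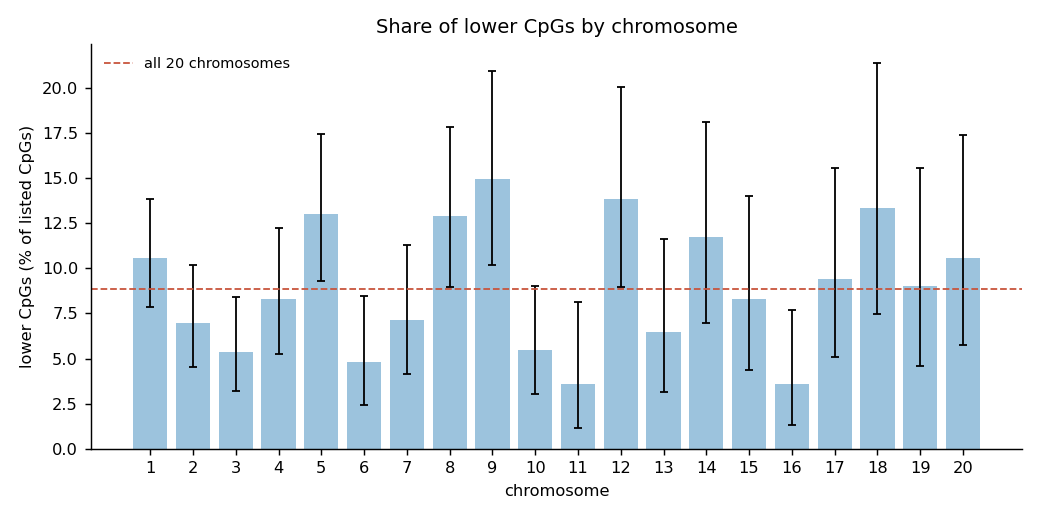
Lower CpGs as a percentage of listed CpGs (y axis) on each numbered chromosome (x axis), with exact 95% intervals; the dashed line is the 8.83% of all 20 chromosomes. Bars run from 3.57% on chromosome 11 to 15.0% on chromosome 9.

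Levels by chromosome were confined by the list's smallest difference, 69.5, and by the end of the scale at 100. They are therefore not compared with the shares. The median control score of a chromosome's lower CpGs ran from 74.7 on chromosome 16, over 6 CpGs, to 88.1 on chromosome 5, over 37 CpGs that include the identical stretch. On each chromosome the listed CpGs were placed in 5 equal intervals of the running number between the first and the last listed CpG. Lower CpGs made up 9.37%, 7.67%, 4.92%, 11.2% and 10.8% of listed CpGs from the first interval to the last. The middle interval held 39 of the 371 lower CpGs (10.5%) but 19.7% of the higher CpGs.

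Lower CpGs lay next to each other more often than higher CpGs lay next to a lower one. The nearest listed CpG was itself lower for 83 of the 371 lower CpGs (22.4%) and for 285 of the 3832 higher CpGs (7.44%). When that nearest CpG was within 10 kb, it was lower for 14 of 37 lower CpGs (37.8%) and for 23 of 305 higher CpGs (7.54%). From 10 to 100 kb it was lower for 34 of 113 (30.1%) and 79 of 1186 (6.66%), and from 100 to 1000 kb for 35 of 213 and 170 of 2124. With identical profiles counted once per chromosome the shares were 22.8% and 9.48%, a smaller gap. This counting also raises the overall share of lower CpGs. Neighbouring CpGs are not independent: the 14 lower CpGs within 10 kb were the members of 7 pairs, each counted from both ends. The difference in shares was not tested.

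In distance alone, lower CpGs lay somewhat closer to another listed CpG than higher CpGs did, a difference that was not tested. The nearest listed CpG of either direction was a median of 136.5 kb from a lower CpG (quartiles 38.8 and 287.6 kb) and 157.9 kb from a higher CpG (quartiles 54.3 and 360.6 kb). Another listed CpG lay within 10 kb of 9.97% of lower and 7.96% of higher CpGs. Adjacent lower CpGs on a chromosome were a median of 2802 kb apart.

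Runs of consecutive listed CpGs that were all lower were mostly short. Of 295 runs, 245 were a single CpG and 37 were pairs, and 13 runs of 3 or more held 52 CpGs. The longest was the run of 8 on chromosome 5 described above. Next came a run of 7 on chromosome 9 from 93546136 to 94393327, over 847.2 kb, with 7 different profiles and mean control scores from 82.3 to 95.3. The CpG at 94268273 scored 88.4, 89.3 and 92.9 in the control replicates and 0 and 29.1 in the IUGR replicates. The other 6 were at 0 in both IUGR replicates. In the window from 90 to 100 Mb on that chromosome, 10 of 21 listed CpGs were lower (47.6%). A run of 5 lay on chromosome 19 from 54530129 to 54970220, and its control scores were uneven, from 43.0, 88.8 and 91.2 at the first CpG to 97.5, 95.04 and 97.5 at 54654185.

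Few lower CpGs lay truly close together. Within 10 kb there were 7 adjacent pairs, on chromosomes 1, 8, 9 (2 pairs), 14, 17 and 20. The closest, at 10625015 and 10625049 on chromosome 14, was 34 bases apart at consecutive running numbers. The first scored 90.1, 95.04 and 90.1 in the control replicates and the second 72.1, 72.1 and 80.7, and both were at 0 in IUGR islets. On chromosome 9 the CpGs at 93546136 and 93546829, 693 bases and 6 running numbers apart, scored 92.6, 97.0 and 96.3 and 83.8, 91.8 and 86.0. On chromosome 17 the CpGs at 60538627 and 60540574, 1947 bases apart, averaged 93.6 ± 2.08 and 82.2 ± 12.6 (SD, n = 3) in control islets, and the second scored 16.0 in IUGR replicate 2. Of the 7 pairs, the pair on chromosome 9 at 114522099 and 114530329 had identical scores and the other 6 did not.

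Lower CpGs were more frequent where the authors' running numbers lay closer together. Local density was taken as running numbers per kb between the listed CpGs on either side. It uses no score directly, but the scores decided which CpGs were listed and so which stretch was measured. Its median was 0.921 per kb at lower CpGs (quartiles 0.669 and 1.22) and 0.780 per kb at higher CpGs (quartiles 0.526 and 1.05). In 5 equal bins of listed CpGs from sparse to dense, lower CpGs made up 3.92%, 7.86%, 9.27%, 10.5% and 12.6%. The exact 95% interval was 2.72% to 5.47% in the sparsest bin, with 33 lower CpGs, and 10.4% to 15.0% in the densest, with 106. The lower CpGs' median density was above that of the higher CpGs on 18 of 20 chromosomes. On some of these the medians were close, such as 0.735 and 0.718 per kb on chromosome 1. The exceptions were chromosome 5, with 0.929 at lower and 0.934 at higher CpGs, and chromosome 8, with 0.757 and 0.766. With bins made within each chromosome the shares were 3.95%, 8.68%, 9.29%, 8.68% and 13.5%. Among listed CpGs with a difference of at least 80 the contrast was smaller, at 7.63% in the sparsest and 13.4% in the densest bin. With identical profiles counted once per chromosome, which raises the overall share of lower CpGs, these shares were 5.65% and 15.5%. Neighbouring CpGs share their flanks, and the difference was not tested.

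**Figure D5:**
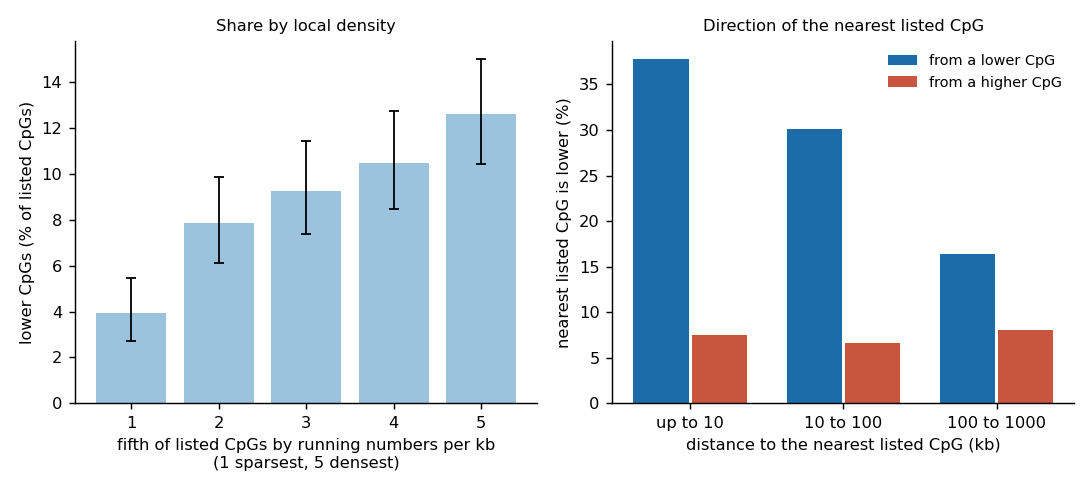
Left, lower CpGs as a percentage of listed CpGs (y axis) in 5 bins of local density (x axis), with exact 95% intervals, rising from 3.92% to 12.6%. Right, percentage of CpGs whose nearest listed CpG is lower (y axis), by distance in kb (x axis), seen from lower and from higher CpGs, at 37.8% and 7.54% within 10 kb.

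Among lower CpGs the control level did not rise with density. The median control score was 86.7 in the sparsest bin, 81.6, 82.1 and 81.2 in the next 3 and 81.0 in the densest. The median SD between control replicates was 4.71 in the sparsest bin and 8.92 in the densest. The sparsest bin held 3 of the 7 identical CpGs of chromosome 5, whose densities ran from 0.384 to 1.24 per kb.

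Inside the authors' listed regions lay 9 lower CpGs (2.43%) and 165 higher CpGs (4.31%). Just 23 of the 512 regions scored lower in IUGR islets, so nothing is read from the gap between these shares. The 9 lower CpGs fell in 8 of the 512 regions, and each sat at an end of its region. How many of the 165 higher CpGs sat at an end was not counted, so nothing is read from these positions. Mean control scores of the 9 lower CpGs were high, from 87.2 to 95.3. Of the 23 regions that scored lower in IUGR islets, 7 held a lower CpG. On chromosome 2 the CpG at 60859520 averaged 92.3 in control islets and closed a region of 7 CpGs from 60855335, whose control values were 47.8, 54.7 and 36.1 and whose IUGR values were both 0. On chromosome 9 the CpGs at 93546136 and 93546829 were both ends of a region of 6 CpGs, with control values of 80.3, 91.3 and 87.1 and IUGR values of 56.0 and 56.4. On chromosome 15 the CpG at 15276009 opened a region of 8 CpGs that averaged 81.0 ± 2.41 (SD, n = 3) in control and 63.0 ± 2.69 (SD, n = 2) in IUGR islets.

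On chromosome 18 a lower CpG and its region went opposite ways. The CpG at 22798197 scored 90.1, 91.4 and 91.4 in control islets and 0 in both IUGR replicates. It closed a region of 4 CpGs from 22793326 that was higher in IUGR islets, with control values of 22.5, 27.6 and 22.8 and IUGR values of 39.2 and 39.2. Also on chromosome 18, the identical CpGs at 35489375 and 35628787 opened regions of 332 bases each, with 7 CpGs each and the same values, 82.5 ± 4.04 (SD, n = 3) in control and 69.2 ± 0.778 (SD, n = 2) in IUGR islets. Region values come from the same libraries and share CpGs with the list, so they are not a second measurement.

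Levels of the remaining listed CpGs are given for description, since the direction and the smallest listed difference of 69.5 force a high mean in 1 group and a low mean in the other in both sets. Higher CpGs had all 3 control scores at 0 at 3446 of 3832 (89.9%), and their median IUGR scores were 82.3 and 80.7. The median size of the difference was 80.6 at lower and 78.3 at higher CpGs. The SD between the raised replicates had a median of 8.32 over 3 control columns at lower CpGs and 6.10 over 2 IUGR columns at higher CpGs. SDs over 3 and 2 values differ on average even where the spread is the same, and the pairwise differences given above, from 7.47 to 9.40 at lower and 8.62 at higher CpGs, lie in the same range.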

How the data were processed

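HELP scores per CpG and replicate, and the group means, were deposited by the authors, per the file headers. The aligner, the tag counting, the score formula and any filters were not given in the sources used here. Each p-value is the authors' own as deposited, and the file headers name neither a test nor an adjustment. The region table gives, per the file headers, the authors' count of CpGs, region scores and their difference. The submitters' processing notes name the build rn6 (Rnor_6.0). Each score column was assigned to its group only, as its name does not tie it to single libraries. No score column was left unmapped.

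Here, repeated rows were dropped, group means recomputed (equal to those deposited), and CpGs counted by level, position, identical scores and overlap with regions, using Python 3.11.15, numpy 2.4.6, pandas 2.3.3 and scipy 1.17.1, with figures from matplotlib 3.10.9. No test between groups was made, because the scores chose the CpGs. Functions were tested on made-up lists. The rule for CpGs named was the 10 largest and 5 smallest differences, both IUGR scores above 0, pairs within 10 kb, the largest identical sets and overlap with regions; other CpGs named, such as those of widest spread, single identical pairs and runs, were chosen after their values were seen. The CpGs and lists were chosen with earlier results of these data known. Genes and sequence around the CpGs were not used here, since the tables at hand are on another build.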

Additional observations from a re-analysis of the deposited data

How the results depend on the processing

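No test was made, and the labels do not say that control and IUGR replicates of the same number belong together, so no pairing was used. Alternatives on runs, nearest neighbours, density and the smallest difference under left-out replicates were chosen after seeing the data. All 371 CpGs stayed lower without any single replicate, which the size of the listed differences fixes; of them 312 to 368 still differed by at least the list's smallest difference. With a difference of at least 80 required, 193 CpGs were left, all at 0 in both IUGR replicates, with a median control score of 88.6 and a median SD of 4.78. The share on chromosome 9 was then 21.6%, and that in the sparsest density bin 7.63%, against 13.4% in the densest. The overall share was then also above 8.83%, since the median difference was 80.6 at lower and 78.3 at higher CpGs. With the authors' deposited p of at most 0.01, the median SD was 6.66. Leaving out a control or IUGR replicate gave median control scores from 82.0 to 83.9 and median SDs from 5.28 to 8.32; SDs from 2 values are smaller by construction. Counting identical profiles once per chromosome, which raises the overall share, gave 5.65% lower CpGs in the sparsest and 15.5% in the densest bin. Windows of 1 kb and 100 kb gave 4 and 55 lower CpGs near another, against 14 at 10 kb. Identical profiles on the same chromosome joined 42 CpGs, against 68 anywhere. With region ends left out, 0 of the 9 CpGs lay inside a region. Without the longest runs on chromosomes 5 and 9, the shares there were 10.5% and 11.7%. Depth is unknown, and the number of replicates, 3 and 2, limits the precision.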

Other observations

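Chromosome X, outside the rule, held 14 lower CpGs among 172 listed (8.14%). Their median control score was 83.3, with a range from 70.1 to 97.5, and their median SD between control replicates was 5.48. All 14 were at 0 in both IUGR replicates. The 1 CpG listed on chromosome Y scored higher in IUGR islets.

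Counts of lower CpGs varied between 10 Mb windows. Of 269 windows with a listed CpG, 108 held no lower CpG, and 7 held 8 or more, with 61 of the 371 between them. These 7 were picked on that count and held from 21 to 38 listed CpGs each, against a median of 14 per window. They include the window with the identical stretch of chromosome 5. Whether lower CpGs gather in windows was not tested. Beside the window on chromosome 9, the fullest lay on chromosome 3 from 160 to 170 Mb, with 10 of 38 listed CpGs lower (26.3%), and at the start of chromosome 12, with 9 of 31 (29.0%).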
